A study of Mus musculus with 34 samples.

Results

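The comparison concerns acetylation of lysine 27 of histone H3 (H3K27ac) in 2 lines of mouse embryonic stem cells, QJ 6-1 and B6 5-1. QJ 6-1 has the genotype B6.D2-(rs30079041-rs51756099)/Bakr and is called B6-13D2: it carries a segment of chromosome 13 from DBA/2J (D2) on a C57BL/6J (B6) background. B6 5-1 is C57BL/6J throughout. The members were the 3 libraries of each line, 6 of 34 libraries in the series, read at all 248336 regions of the shared region list, of which 192158 passed the filter on low counts and were tested. Per the labels the 3 libraries of a line are technical replicates, so each genotype was represented by 1 line. The p-values measure the spread between libraries within lines, estimated jointly over 4 lines, and not the spread between lines of a genotype. Differences between these 2 lines and differences that go with the segment cannot be told apart from this contrast alone. All cells were cultured with serum, LIF, the MEK inhibitor PD0325901 and the GSK3 inhibitor CHIR99021, and chromatin was cut with micrococcal nuclease. Other lines were used for reference. D2 5-5 (DBA/2J) and XE 2-4 (D2.B6-(rs29224292-rs13469455)/Bakr, called D2-13B6, the reciprocal line), 3 technical replicates each, also entered the shared estimate of spread. A further set, measured with another antibody, held 3 separate B6 and 3 separate D2 lines, among them B6 5-1 and D2 5-5.

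H3K27ac is placed by the acetyltransferases CBP and p300 on nucleosomes beside active promoters and enhancers. H3K9me3, the trimethylation of lysine 9 on the same histone, marks heterochromatin, where repeats and some gene families are kept silent. In embryonic stem cells, enhancers bound by pluripotency factors carry H3K27ac, and transposable elements and clustered gene families are typical H3K9me3 targets. The question behind the contrast was how far a D2 segment on chromosome 13 goes with a changed chromatin state on the other chromosomes.

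Counts in regions came to 8761231 to 9414852 per B6 library and 10958210 to 11543469 per B6-13D2 library. In the B6-13D2 libraries, 22.48% to 23.06% of counts lay in the most abundant 1% of regions, against 20.13% to 21.25% in the B6 libraries. Replicates 1 and 2 of B6 and replicates 1 and 3 of B6-13D2 differed by less than the sampling noise (chi-square per degree of freedom 0.9669 and 0.9059). Each such pair was summed and counted as 1 sample, which left n = 2 per line. Replicate 1 of the D2-13B6 line stood apart from its fellows (chi-square per degree of freedom 2.806 and 2.791). It entered the shared estimate of spread, and without it the numbers of regions called higher and lower in B6-13D2 were 20708 and 14892 in place of 14601 and 10372. The promoters of the pluripotency genes Pou5f1, Sox2 and Nanog carried H3K27ac in every library, from 71.9 to 217 CPM (read counts scaled to library size, using trimmed-mean-of-M-values (TMM) factors).

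Of the tested regions, 24973 were called (13.0%), 14601 higher in B6-13D2 (7.60%) and 10372 lower (5.40%) (edgeR quasi-likelihood F-test, Benjamini-Hochberg adjusted p under 0.05). The balance of directions depended on the scaling. Under TMM, 58.5% of called regions were higher. With library totals the share was 38.5% (10664 higher, 17013 lower), with TMM factors from the most abundant decile of regions 39.1%, with upper-quartile factors 52.5% and with level-dependent loess offsets 51.5%. Factors from housekeeping promoters gave 65.3%, DESeq2 size factors 64.9%, and TMM within each chromosome 62%. Library totals moved the median of all regions by -0.15 on the log2 scale relative to TMM. No region was called higher under 1 scaling and lower under another, which shifts of this size make unlikely for any called region, so this is no sign of stability. Called in the same direction under all 8 scalings were 10013 regions higher (5.21%) and 7741 lower (4.03%), and 4415 of the former and 5443 of the latter had a TMM log2 fold change of at least 1 or at most -1. Under TMM alone, 5846 regions were called higher (3.04%) and 6775 lower (3.53%) at that size. In what follows, "higher throughout" and "lower throughout" mean regions called in that direction under all 8 scalings. The counts rest on few samples: without B6 replicate 3, which leaves B6 with 1 sample, 8802 regions were called higher and 5076 lower under TMM and 5201 and 3584 throughout, and without B6-13D2 replicate 2 the counts were 11802 and 5531 under TMM and 6266 and 4193 throughout.

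**Figure D1:**
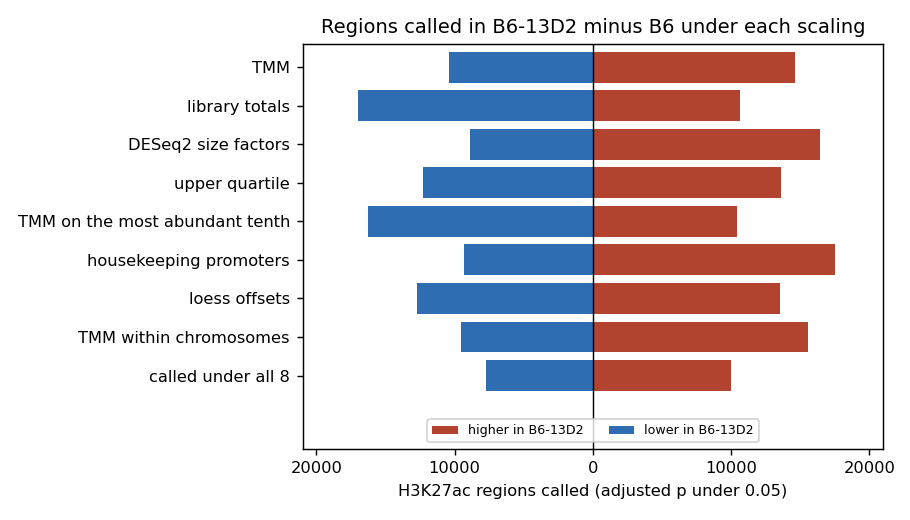
Number of H3K27ac regions called higher (red, right) and lower (blue, left) in B6-13D2 than in B6 under each of 8 scalings and under all 8 together (10013 higher, 7741 lower). Bars start at 0; which direction holds more regions changes with the scaling.

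Lower regions and higher regions differed in kind. The following counts leave out chromosomes 13, X and Y, where 8861 of 178196 tested regions were higher throughout and 7151 lower throughout. Higher regions had a median width of 1231 bp and a median level of 8.61 CPM over the 6 libraries, against 651 bp and 1.46 CPM over all tested regions. Those higher by at least 1 had 828 bp and 3.32 CPM. Lower regions had a median width of 801 bp, a level of 2.40 CPM and a repeat-masked share of 29.1%, against 15.9% over all tested regions and 18.3% in higher regions. In lower regions with a log2 fold change of at most -1 the masked share was 35.2%. The median G+C content was 45.5% in higher regions, 50.8% in lower regions and 48.4% over all. Direction also followed level over all tested regions: the median log2 fold change ran from -0.40 in the decile of regions with the lowest level to 0.14 in the highest decile under TMM, and from -0.55 to 0.00 with library totals. Promoters, defined as regions within 1 kb of a gene start, were 10.9% of higher, 9.36% of lower and 12.4% of tested regions, so most calls lay away from gene starts. Among regions with a TMM log2 fold change of at least 1 in size, promoters were 6.72% of the higher and 7.25% of the lower.

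The following sequences show what the motif counts that follow rest on. Each is a stretch of a distal region, 45 bases on either side of its first motif match or up to the end of the central 300 bases (which reach past the edges of a narrower region), read from the plus strand of GRCm38.p6 (RefSeq), with motif matches in capitals. The regions were chosen after their values were seen, as those with the largest change that hold the motif and meet 4 conditions: an average of at least 2 CPM, less than 10% repeat-masked bases, no overlap between the lines, and a place off chromosomes 13, 18, X and Y. The first 4 were higher throughout and hold the letters TGANTCA, the site of AP-1, the dimer of Fos and Jun proteins that acts downstream of growth factor and stress signals. The other two were lower throughout and hold TCAAGGTCA, the extended site of Esrrb, an orphan nuclear receptor of naive pluripotency.
AP-1, near Strap, chr6:137703046-137703129: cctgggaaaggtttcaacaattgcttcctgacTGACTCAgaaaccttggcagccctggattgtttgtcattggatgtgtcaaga
AP-1, near Atp6v1g3, chr1:138348594-138348690: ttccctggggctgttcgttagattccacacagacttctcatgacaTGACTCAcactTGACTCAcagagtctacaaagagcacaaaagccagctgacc
AP-1, near Snx13, chr12:35246467-35246563: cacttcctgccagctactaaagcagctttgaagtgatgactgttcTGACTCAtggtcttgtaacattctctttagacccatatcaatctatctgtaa
AP-1, near Zfp697, chr3:98374387-98374440: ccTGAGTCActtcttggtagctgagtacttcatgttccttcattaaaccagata
Esrrb, near Bmp7, chr2:172866519-172866617: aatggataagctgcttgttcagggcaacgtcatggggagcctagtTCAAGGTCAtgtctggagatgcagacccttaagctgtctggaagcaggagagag
Esrrb, near Klhl25, chr7:75778171-75778269: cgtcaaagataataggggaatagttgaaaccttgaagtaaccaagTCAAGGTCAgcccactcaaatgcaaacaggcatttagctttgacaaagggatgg
The AP-1 example chr6:137703048-137703343, 31.7 kb from Strap, had 0.512, 0.494 and 1.34 CPM in the B6 libraries and 3.92, 3.30 and 4.06 CPM in the B6-13D2 libraries, a log2 fold change of 2.24 ± 0.34 (approximate SE, adjusted p = 4.18e-06, edgeR). All B6 values lay below all B6-13D2 values there. The Esrrb example chr7:75777899-75778640, 69.7 kb from Klhl25, had 18.1, 15.6 and 17.6 CPM in B6 and 6.31, 5.78 and 5.51 CPM in B6-13D2, a change of -1.55 ± 0.16 (adjusted p = 1.19e-09, edgeR), and it was lower in every B6-13D2 library.

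Distal regions that were higher in B6-13D2 held the AP-1 letters more often the more they rose. Among 156026 distal tested regions, 14.5% held TGANTCA on either strand in their central 300 bases. The share was 14.1% in higher regions with a log2 fold change under 1, 27.6% between 1 and 2, and 45.7% at 2 or more (164 regions). In lower regions it was 8.96% above -1, 7.98% from -1 to -2, and 4.88% at -2 or below. Regions rich in G+C hold the letters less often, so regions were also compared within quintiles of G+C content: higher regions held the letters in 18.1% to 22.2% in every quintile, while the share over all distal regions fell from 18.5% in the quintile poorest in G+C to 9.40% in the richest. Within quintiles of level, higher regions with a log2 fold change of at least 1 held them in 51.7%, 51.4%, 45.3%, 32.3% and 14.7% from the lowest to the highest level, against 15.3%, 15.5%, 15.6%, 14.3% and 11.8% of all distal regions. The regions higher throughout held the letters more often than all distal regions in each G+C quintile, and those higher by at least 1 in each level quintile; higher regions with smaller changes were not split by level. These shares describe sequence; binding of AP-1 was not measured.

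The Esrrb letters showed another pattern. They were found in 1.65% of all distal regions, in 3.33% and 3.37% of lower regions above -1 and from -1 to -2, but in 1.38% of those at -2 or below, and in 1.91%, 0.823% and 1.83% of higher regions under 1, from 1 to 2 and at 2 or more. In the quintile poorest in G+C, 7.44% of lower and 1.81% of higher regions held them, against 2.18% of all, and in the richest quintile 0.814% of lower regions and 0.83% of all. Within quintiles of level from lowest to highest, regions lower by at least 1 held them in 0.366%, 1.38%, 2.68%, 3.98% and 4.81%. All distal regions held them in 1.04%, 1.38%, 1.63%, 1.86% and 2.35%, so lower regions held them more often only in the quintiles of higher level. The octamer ATGCAAAT, bound by Pou5f1, was found in 3.54% of distal regions that rose by 1 to 2 and in 1.84% of those that fell by 1 to 2, against 3.23% of all distal regions; in regions that rose by 2 or more the share was 1.83%. CATTGTT, the core bound by Sox2, was found in 9.08% and 4.10%, against 5.95%, and in 6.1% of regions that rose by 2 or more. Over promoters and distal regions together, the core motif of the insulator protein CTCF was in 0.158% of regions higher throughout, 0.378% of regions lower throughout and 0.672% of all. GGGTGTGGC, bound by Klf factors, was in 1.26%, 1.80% and 2.13%. Each motif was matched on both strands on its own, so matches of different motifs may overlap.

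**Figure D2:**
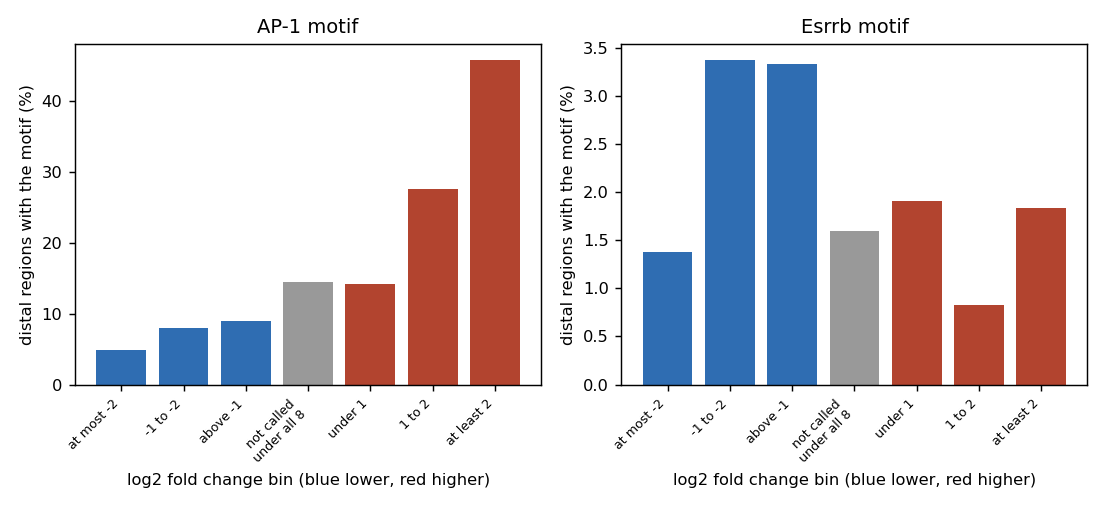
Share of distal regions off chromosomes 13, X and Y that hold the AP-1 letters (left) or the Esrrb letters (right) in their central 300 bases, by direction and size of the H3K27ac log2 fold change. Blue bars are regions lower throughout, red bars regions higher throughout, and the grey bar all others; the AP-1 share runs from 4.88% to 45.7%.

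Chromosome 13, which carries the segment, held the largest changes. Of its 9394 tested regions, 17.4% were called, against 11.8% to 15.6% on the other chromosomes, and 842 were higher and 421 lower throughout. From 65 to 67 Mb, 349 regions took 3.16%, 3.21% and 3.20% of all counts in the B6-13D2 libraries and 0.25%, 0.26% and 0.26% in the B6 libraries. The D2 libraries took 2.79% to 2.85%, and the D2-13B6 libraries 0.24% to 0.27%. Over the rest of the chromosome the shares were 4.07% to 4.10% in B6-13D2 and 4.14% to 4.15% in B6. The median log2 fold change was 4.59 in the window from 65 to 66 Mb, where 141 of 161 regions were called higher, 4.03 from 66 to 67 Mb (166 of 183) and 1.71 from 68 to 69 Mb (35 of 63). H3K9me3 moved in the same direction in these windows, with medians of 4.07, 3.63 and 2.53. Reads were aligned to a reference built from B6, and the number of copies of this stretch in D2 was not measured here, so acetylation per copy and number of copies cannot be told apart there.

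**Figure D3:**
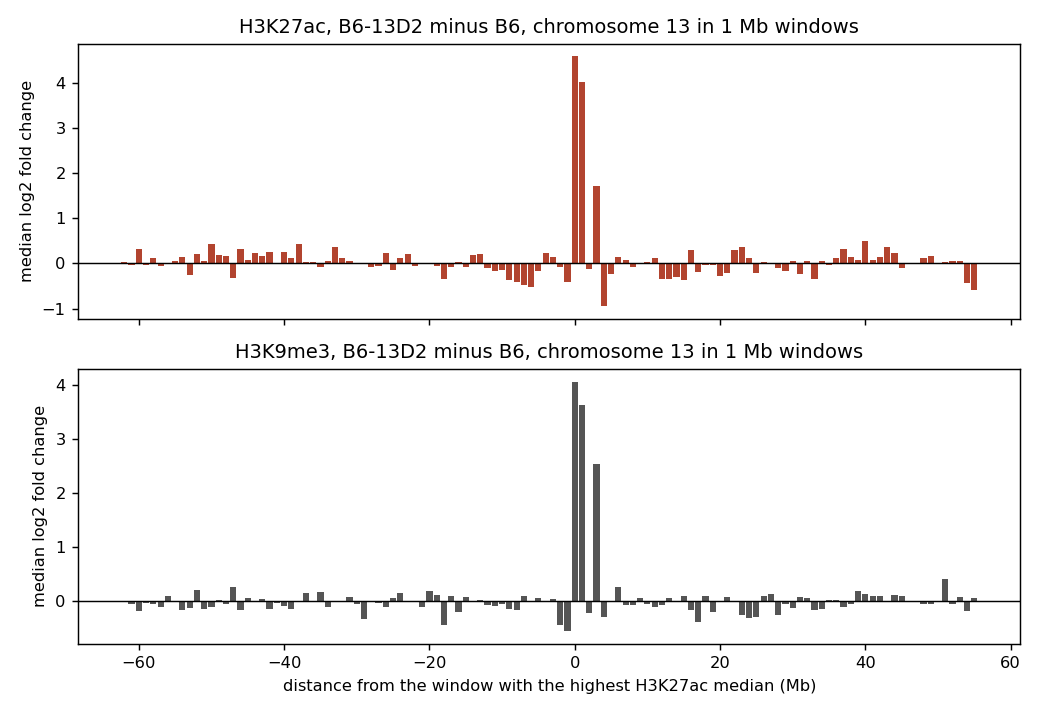
Median log2 fold change of B6-13D2 minus B6 for H3K27ac (top) and H3K9me3 (bottom) in 1 Mb windows of chromosome 13 with at least 10 tested regions, placed by distance from the window with the highest H3K27ac median. Both marks rise at 0 and 1 Mb (4.59 and 4.03 for H3K27ac, 4.07 and 3.63 for H3K9me3) and at 3 Mb (1.71 and 2.53), and H3K27ac falls in the next window (-0.95).

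Windows beside this block differed in direction, and most of their regions were not called. Of 126 tested regions from 67 to 68 Mb, 40 were called lower and 17 higher, and from 69 to 70 Mb 21 of 63 were lower, 1 was higher, and the median was -0.95. Toward the other side, 28 of 106 regions were lower from 64 to 65 Mb (median -0.42) and 23 of 99 from 59 to 60 Mb (median -0.52). Between these, 23 regions were higher and 4 lower from 62 to 63 Mb (median 0.14), 8 were higher and 2 lower from 61 to 62 Mb (median 0.24), and 14 went each way from 63 to 64 Mb. From 60 to 61 Mb, 2 were higher and 4 lower (median -0.16). The most changed regions of the chromosome show both directions; where the ends of the segment lie relative to them was not determined here.

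The central 300 bases of the distal region with the largest rise off chromosome 13, and of the chromosome 13 regions with the largest rise and the largest fall, are shown here because these 3 loci go from near background to strong signal or the reverse. They come from the plus strand of GRCm38.p6 (RefSeq), in lower case, with the letters of any of the 6 motifs searched in capitals.
Aass intron, chr6:23085176-23085475: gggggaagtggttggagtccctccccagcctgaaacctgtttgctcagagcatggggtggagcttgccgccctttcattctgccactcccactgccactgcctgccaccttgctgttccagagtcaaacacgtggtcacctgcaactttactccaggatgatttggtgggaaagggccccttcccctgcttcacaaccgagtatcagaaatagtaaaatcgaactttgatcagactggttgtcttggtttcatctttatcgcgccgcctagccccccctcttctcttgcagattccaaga
chromosome 13 rise, near Gm10324, chr13:66002094-66002393: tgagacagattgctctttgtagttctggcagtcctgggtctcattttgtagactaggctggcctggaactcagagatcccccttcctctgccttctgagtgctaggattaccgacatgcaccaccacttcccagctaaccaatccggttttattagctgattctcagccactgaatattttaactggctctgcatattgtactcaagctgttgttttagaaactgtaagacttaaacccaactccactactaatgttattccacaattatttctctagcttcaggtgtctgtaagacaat
Golm1 intron, chr13:59656719-59657018: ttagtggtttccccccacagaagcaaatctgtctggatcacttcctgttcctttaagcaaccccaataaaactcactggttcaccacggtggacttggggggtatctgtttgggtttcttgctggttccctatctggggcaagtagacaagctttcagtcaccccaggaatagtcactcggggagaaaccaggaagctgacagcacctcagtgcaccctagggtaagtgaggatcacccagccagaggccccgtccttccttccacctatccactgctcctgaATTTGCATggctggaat
Of these 3 windows, that of the Golm1 region holds 1 match to the octamer. The others hold none of the 6 motifs.

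The region chr13:66001831-66002656, outside genes and 116.9 kb from Gm10324, had 1.02, 0.691 and 0.669 CPM in the B6 libraries and 137, 131 and 140 CPM in the B6-13D2 libraries. The line means were 0.763 ± 0.13 and 135 ± 5.5 CPM (SD, n = 2), a log2 fold change of 7.40 ± 0.21 (approximate SE, adjusted p = 5.54e-29, edgeR). This SE can be too small, as no B6 library held more than 10 counts in the region. The next 4 regions by rise, also from 65 to 67 Mb, had log2 fold changes of 7.25 to 7.37, and 1 of them lies in an intron of Platr2, a long noncoding RNA gene. In all 5, H3K9me3 rose as well, by 3.11 to 5.24. The groups were far apart in each of them, with no B6 library above 1.02 CPM.

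In the opposite direction, chr13:59655361-59658376, in an intron of Golm1 (a Golgi membrane protein), had 58.5, 59.8 and 66.4 CPM in B6 and 0.287, 0.643 and 0.271 CPM in B6-13D2, a change of -7.25 ± 0.24 (adjusted p = 6.74e-28, edgeR). The SE can again be too small, as no B6-13D2 library held more than 7 counts in this region. H3K9me3 was lower there too (-2.36, adjusted p = 0.00597, edgeR). The D2 line had 0.668 ± 0.15 CPM and D2-13B6 71.3 ± 1.8 CPM (SD, n = 2), so the level went with the origin of the segment in all 4 lines. Large falls with both lines of the D2 segment far below both lines of the B6 segment were measured at chr13:56418288-56423400, 3.2 kb from Gm3045 (-3.52 ± 0.15), at chr13:59467552-59469381 in an intron of Agtpbp1, a tubulin deglutamylase (-3.47 ± 0.22), over a coding exon of Klhl3, an adaptor of a ubiquitin ligase (-3.22 ± 0.30), and in an intron of Cntnap3, a cell adhesion protein (-3.20 ± 0.29). H3K9me3 was also lower at the Cntnap3 region (-4.78, adjusted p = 8.16e-07, edgeR) but not called near Gm3045 (0.46). It was not tested at the Agtpbp1 and Klhl3 regions. Reads were aligned to a reference built from B6. Less acetylation and D2 sequence that is absent or does not align therefore cannot be told apart at the falls on this chromosome.

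Off chromosome 13, the distal region with the largest rise was chr6:23084870-23085782, in an intron of Aass, an enzyme of lysine breakdown. It had 1.02, 1.28 and 1.56 CPM in B6 and 19.3, 17.4 and 19.1 CPM in B6-13D2 (3.83 ± 0.22, adjusted p = 1.25e-18, edgeR). D2 had 23.9 ± 2.6 CPM and D2-13B6 5.40 ± 0.21 CPM (SD, n = 2). Thus both lines with the D2 segment were above their partners, by 3.83 and 2.15 on the log2 scale. A region over a non-coding exon of Sgip1, a protein of endocytosis (chr4:102882741-102883533), showed the same order, with 0.512 to 0.790 CPM in B6 and 4.59 to 5.69 CPM in B6-13D2 (2.91 ± 0.29) and a difference of 2.06 between D2 and D2-13B6.

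The other three distal regions with the largest rise did not follow the segment in the D2 background. The region chr2:7403654-7404168, in an intron of Celf2 (an RNA-binding splicing regulator), had 0.512, 0.691 and 0.223 CPM in B6 and 3.73, 3.86 and 4.61 CPM in B6-13D2 (3.06 ± 0.36), while D2 minus D2-13B6 was -0.61 (adjusted p = 0.632, edgeR). The difference between the backgrounds was 3.67 (adjusted p = 0.000242, edgeR). At chr6:137704216-137705031, 30 kb from Strap, B6 had 2.23 to 3.26 CPM and B6-13D2 16.8 to 18.7 CPM (2.77 ± 0.20). At chr1:23302490-23302842, 63.6 kb from Ogfrl1 and wholly repeat-masked, the levels were 0.512 to 0.888 and 4.33 to 5.26 CPM (2.69 ± 0.30).

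Among distal regions that fell, 3 of the leading 5 lay together on chromosome 7 beside Obox6, a member of the oocyte-specific homeobox family. At chr7:15848989-15851080, 9.3 kb from Obox6, B6 had 38.7, 39.9 and 44.1 CPM and B6-13D2 0.955, 1.47 and 1.54 CPM (-4.95 ± 0.20, adjusted p = 1.24e-24, edgeR). H3K9me3 rose there by 1.94 (adjusted p = 2.75e-10, edgeR). The neighbours chr7:15848329-15848926 and chr7:15854363-15855281, the latter nearer to Crx, fell by 4.37 and 4.24 on the log2 scale, and 69.98% to 89.55% of the bases of the 3 regions are repeat-masked. D2 minus D2-13B6 was -3.24 at the first, so the lines with the D2 segment were lower in both backgrounds. In an intron of Bicd1, an adaptor of the dynein motor, chr6:149471111-149472212 had 10.9 to 12.5 CPM in B6 and 0.669 to 0.813 CPM in B6-13D2 (-4 ± 0.27), with H3K9me3 higher by 2.94 (adjusted p = 2.21e-13, edgeR). The remaining region, far from any gene and 99.22% repeat-masked, fell by 4.13 with H3K9me3 higher by 1.47.

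Promoters gave a second view. The 10 with the largest rises and the 10 with the largest falls off chromosomes 13, X and Y, among those called under all 8 scalings with no overlap between the lines, are described here. Nefm, the medium neurofilament chain, had 4.20, 4.05 and 5.13 CPM in B6 and 16.0, 17.3 and 14.7 CPM in B6-13D2 at chr14:68122506-68125416 (1.86 ± 0.18, adjusted p = 4.36e-11, edgeR). The B6-13D2 level lay between B6 and the D2 lines, which had 35 ± 2.0 CPM in D2 and 28.7 ± 1.1 CPM in D2-13B6 (SD, n = 2). Acta2, smooth muscle actin, rose by 1.65 ± 0.33 from 0.888 to 1.78 CPM to 4.31 to 4.88 CPM, and Lox, which crosslinks collagen and elastin, by 1.56 ± 0.27. Adamts12, an extracellular metalloprotease, rose by 1.51 ± 0.32 and Procr, the protein C receptor, by 1.44 ± 0.30. The DESeq2 Wald test did not call Acta2 (adjusted p = 0.124).

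Cd59a, which guards cells against the complement membrane attack complex, was the promoter of this group with the highest level. At chr2:104095512-104097708 it had 14.1, 16.7 and 15.8 CPM in B6 and 46.6, 43.9 and 49.7 CPM in B6-13D2 (1.57 ± 0.14, adjusted p = 5.33e-12, edgeR). H3K9me3 fell by 3.27 on the log2 scale at the same region (adjusted p = 5.56e-17, edgeR), from 56.8 to 5.78 CPM. D2 exceeded D2-13B6 by 1.37 for H3K27ac, and the difference between the backgrounds was not called (adjusted p = 0.661, edgeR). Adam32, of the disintegrin and metalloprotease family, rose by 1.62 ± 0.20 with a D2 minus D2-13B6 difference of 1.71. The rises of Pla2g4e, a phospholipase (1.61 ± 0.16), Agbl4, a tubulin deglutamylase (1.60 ± 0.30), and A430078G23Rik (1.59 ± 0.18) came with differences of only 0.28, 0.08 and 0.30 in the D2 background.

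Obox6 had the largest fall among the promoters, with 19.6, 18.2 and 20.5 CPM in B6 and 0.860, 1.47 and 0.632 CPM in B6-13D2 at chr7:15838855-15840350 (-4.28 ± 0.23, adjusted p = 1.57e-19, edgeR). Boll, an RNA-binding protein of male meiosis, fell by 2.13 on the log2 scale from 5.13 to 5.94 CPM to 0.734 to 1.63 CPM. Rec114, needed for meiotic DNA breaks, had 3.48, 5.03 and 4.01 CPM in B6 and 1.24, 1.01 and 0.813 CPM in B6-13D2 at chr9:58743435-58744210 (-2.02 ± 0.28, adjusted p = 8.61e-07, edgeR). Its H3K9me3 rose by 4.00 (adjusted p = 3.84e-11, edgeR), the largest rise among those of the 20 named promoters tested for H3K9me3 (not Acta2, Procr, Obox6 and Gdf5). The fall of H3K27ac was not seen in the D2 background (D2 minus D2-13B6 -0.08), and the difference between the backgrounds was called (adjusted p = 0.00144, edgeR).

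Other promoters that fell have varied roles. A2m, a broad protease inhibitor, had 11.4, 12.3 and 12.4 CPM in B6 and 1.24, 1.93 and 1.81 CPM in B6-13D2 (-2.84 ± 0.22), and D2 minus D2-13B6 was -1.88. Gdf5, a ligand of the BMP family, changed by -1.82 ± 0.16, Cyp2s1, a cytochrome P450, by -1.66 ± 0.18, and Tmem200b, a membrane protein, by -1.75 ± 0.17, each also called in the D2 background. Aqp9, a water and glycerol channel (-1.80 ± 0.29), and Efcab8 (-1.79 ± 0.22) had differences of -0.54 and -0.38 there, which were not called. The predicted gene Gm37596, whose region is 88.77% repeat-masked, fell by 2.18 from 43.8 to 50 CPM to 9.08 to 11.7 CPM.

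**Figure D4:**
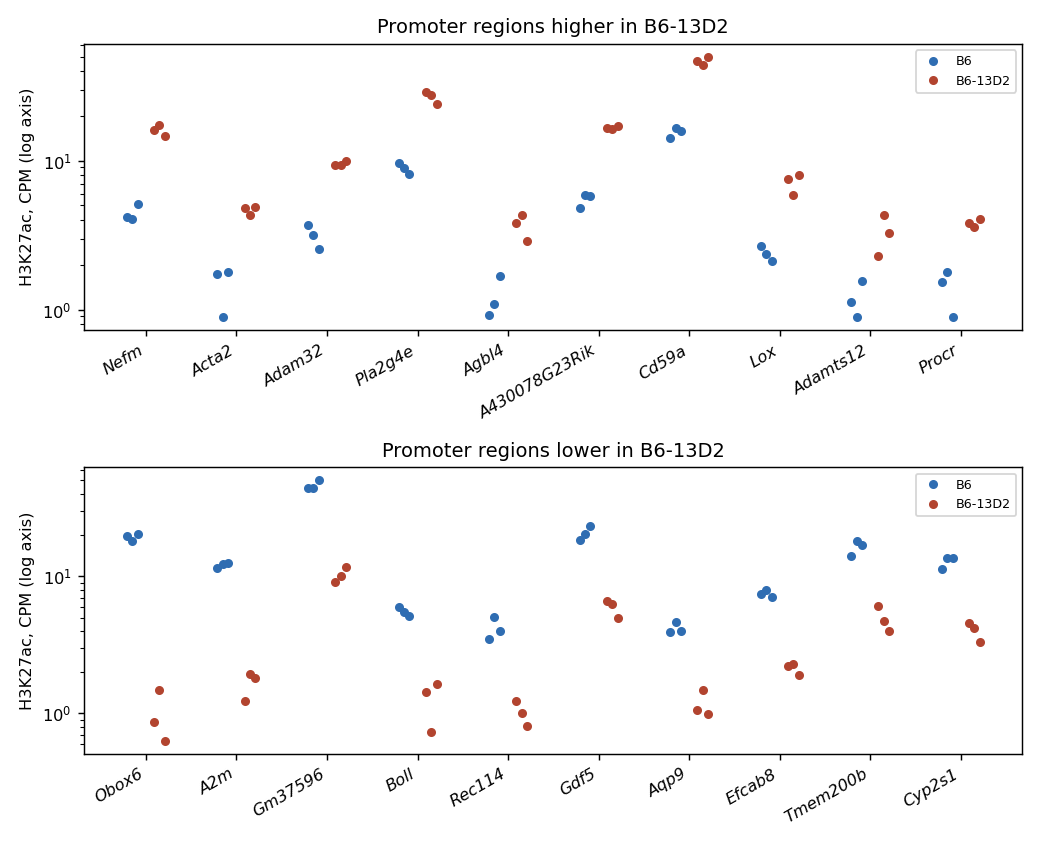
H3K27ac in CPM (log axis) at the promoter regions with the 10 largest rises (top) and 10 largest falls (bottom) off chromosomes 13, X and Y, 1 point per library, B6 in blue and B6-13D2 in red. The 3 libraries of a line lie on 1 side of the other line's at each gene, which the choice of genes required (over all tested regions this held for 36.0%).

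In 1 Mb windows off chromosome 13, the window with the largest share of falls held the Obox family. From 15 to 16 Mb on chromosome 7, 26 of 55 tested regions were called lower with a log2 fold change of at most -1 (47.3%), and 22 were lower throughout; the median was -1.22. The window holds Obox1, Obox2, Obox3, Obox5 and Obox6, and also Crx, Crxos, Selenow, Nop53, Ehd2 and Bicra; the falls were not assigned to single genes. It was followed by 7 of 16 regions on chromosome 8 from 55 to 56 Mb (Gpm6a, Adam29 and Glra3) and 9 of 24 on chromosome 5 from 94 to 95 Mb, a cluster of predicted genes. The window with the largest share of rises, chromosome 14 from 82 to 83 Mb, with no protein-coding gene, had 7 of 24 regions higher by at least 1. In chromosome X from 24 to 25 Mb and chromosome 15 from 69 to 70 Mb, 4 of 14 and 3 of 11 regions were higher, but 0 in either were higher throughout. Over 2403 windows the median share was 2.22% higher and 3.07% lower. Gene families such as Obox share sequence, and how reads that match several copies were counted is not given in the sources used here.

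Outside chromosomes 13, X and Y, H3K9me3 mostly moved the opposite way where both marks were called. Of all regions tested for H3K9me3, 1.69% were called, 1.23% higher and 0.458% lower. Off those chromosomes it was called higher at 0.895% and lower at 0.407% of 73410 regions tested for both marks. Where H3K27ac was lower throughout with a log2 fold change of at most -1, H3K9me3 was higher at 266 of 3220 regions (8.26%) and lower at 10. Where H3K27ac was higher throughout by at least 1, H3K9me3 was lower at 37 of 1506 (2.46%) and higher at 3. With a change of at least 1 in size in both marks, 253 regions had lower H3K27ac and higher H3K9me3, 33 had the reverse, 9 had both lower and 3 both higher. This differs from 65 to 67 Mb on chromosome 13, where both marks rose. Most H3K27ac changes came without a call for H3K9me3, whose libraries were shallower (1904669 to 2118055 counts per library in these lines).

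The D2 background gave a second contrast, D2 minus D2-13B6, with no library in common, although both contrasts share 1 estimate of spread. The D2-13B6 segment has other end markers than the B6-13D2 segment, and the series text and the sample labels give its end differently, so the segments need not cover the same stretch. Over all tested regions 6.67% were called in it. Of regions lower throughout in B6-13D2, 34.8% were also called lower in D2 than in D2-13B6, against 5.13% of all tested regions off chromosomes 13, X and Y. Without D2-13B6 replicate 1 these shares were 35.8% and 6.42%. Of regions higher throughout, 6.16% were called higher in D2 than in D2-13B6, against 1.19% of all, or 4.82% against 1.70% without that replicate. In the opposite direction, 5.39% of regions higher throughout were lower in D2 than in D2-13B6, or 8.14% without that replicate. Whether falls recurred more often than rises was not tested. The difference between the backgrounds, a test that includes the libraries that chose the regions, was called at 44.4% of regions higher throughout and 19.8% of regions lower throughout, against 5.25% of all (5.30% with chromosomes 13, X and Y). The number of such calls over all regions, 10176, was 4401 without D2 replicate 2 and 22495 without D2-13B6 replicate 1. In the separate B6 and D2 lines, measured with another antibody, 49.3% of all tested regions were called; 52.1% of the 4429 regions lower throughout that could be tested there were lower in D2 (27.8% of all), and 32.4% of the 7373 regions higher throughout that could be tested there were higher in D2 (27.2% of all). One of those B6 lines is B6 5-1 itself, and without it the shares were 49.5% against 25.3% and 28.8% against 23.8%. One of those D2 lines is D2 5-5, the D2 line of the second contrast.

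Promoters of 18 gene lists placed these changes among known programmes. Over 15733 protein-coding promoters, 830 were called higher (5.28%), 545 lower (3.46%) and the median log2 fold change was -0.01. With library totals the counts were 652 and 1936 and the median -0.15, and with loess offsets 715 and 2043 and -0.13. Housekeeping promoters held 0 calls among 31 under TMM (median -0.05) but 10 lower calls with library totals and 13 with loess offsets, so small changes of promoters depend on the scaling.

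The called promoters of germline and 2-cell-stage genes were lower. Of 16 tested germline promoters, 4 were called lower and 0 higher (median -0.69; 6 lower with library totals, 3 with DESeq2 size factors). Sycp1, of the synaptonemal complex, had 1.43, 1.68 and 1.78 CPM in B6 and 0.478, 0.275 and 0.632 CPM in B6-13D2 (-1.81 ± 0.42, adjusted p = 0.00193, edgeR). Mael, of the piRNA pathway, fell by 1.52 on the log2 scale from 2.45 to 2.96 CPM to 0.722 to 1.19 CPM. Sycp3 and Stra8, the latter a switch for meiosis, fell by 0.87 and 0.91, Stra8 not under every scaling. Of 8 tested promoters of the 2-cell-stage list, 4 were lower and 0 higher (median -0.81; 5 lower with library totals). Zscan4d, of the zinc finger family that marks 2-cell-like cells, had 5.12, 3.36 and 5.01 CPM in B6 and 1.53, 1.93 and 2.53 CPM in B6-13D2 (-1.17 ± 0.25, adjusted p = 0.000768, edgeR). Gm8300 and Usp17la fell by 1.63 and 1.28, and Sp110 by 0.55. The summed level of the list was 50.15 to 56.90 CPM in B6 and 26.37 to 39.66 CPM in B6-13D2, most of it from Sp110 (40.4, 36.2 and 31 CPM in B6 and 18.8, 29.8 and 19.1 CPM in B6-13D2). Several members belong to families of near-identical copies, so reads may be split among them. DESeq2 did not call Sycp1, Mael or Usp17la (adjusted p = 0.0593, 0.103 and 0.136), and without B6 replicate 3 Gm8300 and Usp17la were not called (adjusted p = 0.0791 and 0.0875, edgeR).

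The called promoters of ERK and Wnt targets were higher under TMM, by about 1 or less on the log2 scale. Of 16 ERK pathway targets, 5 were called higher and 0 lower (median 0.34; 5 to 6 under the other scalings tried for the lists). Etv5, an ETS factor, had 16.3, 21.2 and 21.6 CPM in B6 and 34.8, 31.8 and 35.9 CPM in B6-13D2 (0.76 ± 0.14, adjusted p = 8.49e-05, edgeR). Myc rose by 0.73 ± 0.14, and Etv4 and the feedback inhibitors Spred1 and Spry4 by 0.58 each. The AP-1 genes Fos, Fosl1 and Junb had log2 fold changes of 0.33, 0.40 and 0.24 and were not called. Of 16 Wnt targets, 3 were higher and 0 lower under TMM (4 higher and 1 lower with library totals). Ccnd1, cyclin D1, had 9.01, 10.5 and 10.4 CPM in B6 and 20, 18.8 and 20.9 CPM in B6-13D2 (0.98 ± 0.15, adjusted p = 5.44e-06, edgeR), Bmp4 rose by 1.05 ± 0.23 and Sp5 by 0.93 ± 0.15. Ccnd1 and Sp5 went the other way in the D2 background (D2 minus D2-13B6 -0.56 and -0.45).

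Of 14 naive pluripotency promoters, 3 were higher and 0 lower, against 5.28% higher over all protein-coding promoters, namely Prdm14 (0.58), Dppa3 (0.52) and Tfcp2l1 (0.41), of which Dppa3 was not called under every scaling. Of 13 core pluripotency promoters Jarid2, a Polycomb subunit, was the only one called under TMM (0.50). Library totals called 2 higher and 1 lower, and loess offsets 2 higher and 2 lower. Pou5f1, Sox2 and Nanog had log2 fold changes of 0.22, 0.32 and 0.06 and were not called. Of 14 formative and primed promoters, Zic2 (0.57) and Foxd3 (0.54) were higher and Sox3 was lower (-1.03, adjusted p = 0.0489, edgeR). Sox3 was not called under several of the other scalings and filters tried, nor without any 1 of 5 libraries (adjusted p up to 0.405, edgeR).

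Fibroblast genes were listed as markers of feeder cells that a stem cell culture can hold. Of 17 tested markers of 20, 5 were higher and 0 lower (median 0.62), and 12 were not called. Col1a2, a collagen chain, had 2.66, 2.76 and 2.12 CPM in B6 and 6.78, 5.97 and 7.68 CPM in B6-13D2 (1.43 ± 0.27, adjusted p = 0.000187, edgeR), Acta2 is given above, and S100a4, Prrx1 and Col5a1 rose by 1.12, 0.90 and 0.84, Prrx1 not under every scaling. The summed level was 40.11 to 46.30 CPM in B6, 59.94 to 65.20 CPM in B6-13D2 and 96.31 to 110.4 CPM in D2. In D2-13B6 it was 59.86 CPM in replicate 1 and 94.27 and 98 CPM in the other libraries. Housekeeping promoters were also higher in the D2 background on this scale. They summed to 1173 to 1335 CPM in B6, 1177 to 1271 in B6-13D2, 1562 to 1713 in D2 and 1564 to 1667 in D2-13B6. The list's Thy1, Fap and Tgfbi had changes of 0.00, -0.36 and -0.82, and Mgp, at 0 in 1 B6-13D2 library, had -1.86; none of these was called. The part of feeder cells in this and in the distal rises was not tested. DESeq2 did not call Acta2, Col1a2 or S100a4 (adjusted p = 0.124, 0.0608 and 0.0515).

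In the other lists single genes stood out. Cdkn1a, the cell cycle inhibitor p21, was the only member of 16 p53 targets called under TMM. With library totals 5 were lower and with loess offsets 7, against 1936 and 2043 of all 15733 protein-coding promoters. Cdkn1a had 62.7, 65.1 and 76.8 CPM in B6 and 28.5, 25.1 and 30 CPM in B6-13D2 (-1.35 ± 0.13, adjusted p = 2.22e-10, edgeR). H3K9me3 rose there by 1.23 (adjusted p = 0.000263, edgeR), and Mdm2 had a change of -0.06. The imprinted genes Peg10 and Sgce share 1 promoter region, which had 5.32, 6.22 and 5.24 CPM in B6 and 13.5, 11.9 and 12.5 CPM in B6-13D2 (1.17 ± 0.17, adjusted p = 2.94e-06, edgeR). Gnas (0.72) and Zrsr1 (0.40) were also higher, and Igf2 was lower at a trace level (0.819 to 1.28 CPM in B6, 0 to 0.361 CPM in B6-13D2), a call that was lost without B6-13D2 replicate 1 (adjusted p = 0.0676, edgeR). Of 22 imprinted genes 4 were thus higher and 1 lower, with the region of Peg10 and Sgce counted for both. Of 13 trophoblast promoters 2 were higher, Tfap2c (1.12 ± 0.17) and Cdx2 (0.78), and 2 lower, Tead4 (-0.76) and Hand1 (-0.95). Of 33 tested Hox promoters Hoxc6 (1.05) and Hoxb9 (0.75) were higher under TMM (2 higher and 4 lower with library totals); DESeq2 did not call Hoxc6 (adjusted p = 0.423), nor was it called without B6 replicate 2 (adjusted p = 0.061, edgeR). Of 15 mesoderm promoters Bmp4 was higher and Hand1 lower. The endoderm gene Lama1 (0.98) and the neuroectoderm genes Irx3 (0.81) and Olig2 (0.76) were higher. Of 23 promoters of heterochromatin writers and readers, the H3K9 methyltransferase Suv39h2 was higher (0.49) and the remodeller Hells lower (-0.47), and of 15 hypoxia and glycolysis promoters Bnip3 was called (-0.85). These counts are under TMM: with library totals 0 heterochromatin promoters were higher and 5 lower, and 4 hypoxia promoters were lower. Hand1, Irx3, Foxd3 and Suv39h2 were not called under every scaling.

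**Figure D5:**
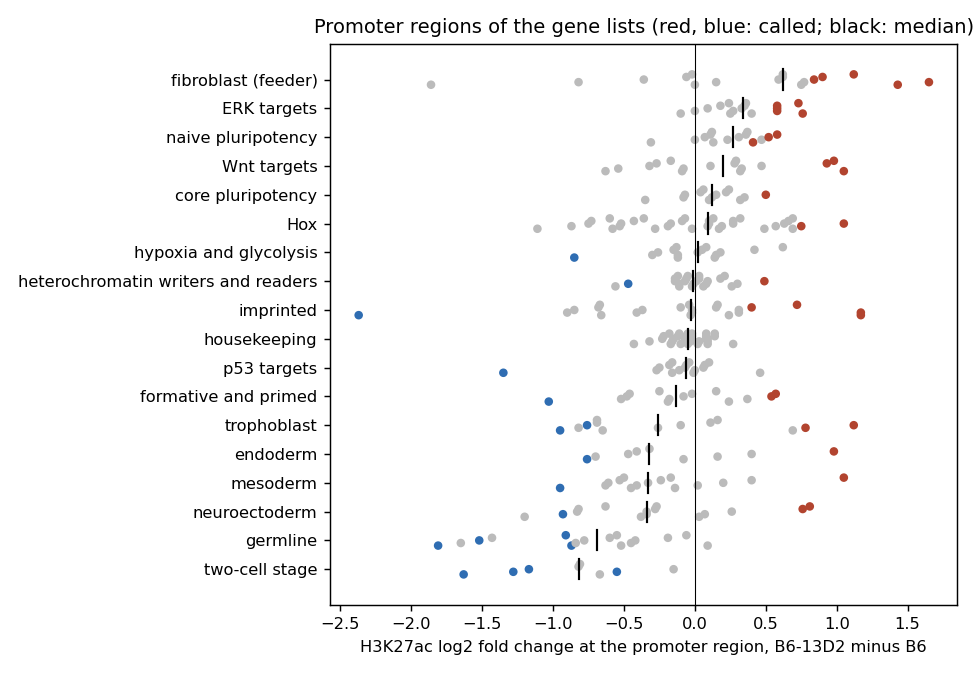
H3K27ac log2 fold change (B6-13D2 minus B6, TMM) at the promoter region of each tested member of 18 gene lists, 1 point per gene, red where called higher, blue where called lower and grey where not called. Black marks are list medians, from -0.81 (2-cell stage) to 0.62 (fibroblast).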

How the data were processed

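H3K27ac was measured by chromatin immunoprecipitation and sequencing. The authors deposited raw read counts per region on a list shared by all libraries, with GENCODE M21 gene models used here on build mm10. Per the submitters' processing notes the tools were Trimmomatic 0.39, HISAT2 2.2.1, MACS 1.4.2, bedtools 2.9.2 and edgeR; their roles and settings are not given in the sources used here. No input library was used here, and 2 columns of no sample here were left out.

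The deposited counts were analysed with edgeR 4.0.16 in R 4.3.3 (quasi-likelihood F-test, TMM, Benjamini-Hochberg adjustment, threshold 0.05). Low regions were removed by filterByExpr (count 10, total 15). All 4 lines entered 1 fit. Each SE is the size of the log2 fold change divided by the square root of its F statistic. It is an approximation and can be too small where a line has few counts. Library pairs whose chi-square per degree of freedom was under 1 were summed, which gave 2 samples per line, and SDs are over these samples. The contrast was repeated under 8 scalings, with DESeq2 1.42.0, with other filters, with unsummed libraries, with a replicate block and without each library. H3K9me3 counts of the same lines and H3K27ac counts of separate lines were fitted in the same way, each table on its own. The scripts were tested on simulated data.

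Named regions were, by size of the fold change, 10 promoter and 5 distal regions per direction off chromosomes 13, X and Y, and 5 per direction on chromosome 13. They had to be called in 1 direction under all 8 scalings, with at least 2 CPM on average and no overlap between the lines. From each gene list, called members with a log2 fold change of at least 1 in size were named, at most 4 per direction. Windows of 1 Mb needed 10 tested regions. List members named with smaller changes, the uncalled members and the motif examples were chosen after their values were seen. The comparison, the members and the gene lists were chosen with earlier results of these data known. Some results of the endoderm and neuroectoderm lists are not reported here.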

Additional observations from a re-analysis of the deposited data

Results flagged for a closer look

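Of 54 named regions, 25 changed by a different amount in the 2 backgrounds, by the test of the difference between B6-13D2 minus B6 and D2 minus D2-13B6 (edgeR, adjusted p under 0.05), against 5.30% of all tested regions. The regions were named for their change in the B6 background, which enters this difference, so a high count was built in. Over all regions the number of such calls was 10176, and 4401 without D2 replicate 2 or 22495 without D2-13B6 replicate 1. Each value here is that difference on the log2 scale. The D2 background holds the D2-13B6 replicate that stands apart, and 1 line represents each genotype.

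Among promoters that rose in B6-13D2, the difference was 1.56 at Nefm, 1.33 at Pla2g4e, 1.52 at Agbl4, 1.29 at A430078G23Rik and 1.42 at Lox. It was 1.18 at Col1a2, 1.21 at the shared Peg10 and Sgce region and 0.95 at Tfap2c. In the D2 background these 8 had changes from -0.04 to 0.30. Among distal rises it was 1.69 in the Aass intron, 3.67 in the Celf2 intron, 2.43 near Strap and 2.62 near Ogfrl1.

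Among promoters that fell, the difference was -1.94 at Obox6, -2.15 at Gm37596, -1.94 at Rec114 and -1.41 at Efcab8. It was -2.03 at Sycp1, -2.19 at Mael, -2.10 at Usp17la, -1.38 at Zscan4d and -0.65 at Cdkn1a. Obox6 and Cdkn1a were lower with the D2 segment in both backgrounds. Sycp1, Mael, Usp17la and Zscan4d had D2 minus D2-13B6 values from 0.21 to 0.83. Among distal falls the difference was -1.71 and -1.52 at the 2 regions nearest Obox6 and -2.19 in the Bicd1 intron, and on chromosome 13 it was -0.79 near Gm3045. All 4 were lower with the D2 segment in both backgrounds.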

How the results depend on the processing

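Over the 54 named regions, 1158 values kept the call, 22 lost it and 0 reversed. Of these regions, 40 were chosen for being called in 1 direction under all 8 scalings, so that part restates the choice. Of the counts of called regions, those lower in B6-13D2 rose from 10372 to 17013 with library totals and 16231 with TMM on the most abundant decile. With the DESeq2 Wald test the counts were 7086 higher and 2948 lower, and in the other contrasts 6155 for D2 minus D2-13B6, 5369 for the difference between backgrounds and 634 for H3K9me3. With the 2 lines alone they were 23248 higher and 18684 lower. With every library as its own sample, 22509 were higher and 15216 lower under TMM, and 14727 and 12965 under all 8 scalings. A mean of at least 20 counts gave 830 for H3K9me3. The cause of these shifts was not tested. TMM outside chromosome 13, added after seeing the data, gave 16908 higher and 9132 lower, and library totals outside chromosome 13, added likewise, 12105 and 14328.

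Same-numbered libraries did not deviate together (correlations -0.027, 0.022 and 0.039), so the numbers do not pair the samples. With a replicate block the unsummed libraries gave 22302 higher and 14863 lower, 20316 for D2 minus D2-13B6, 20667 for the difference between backgrounds, 1369 for H3K9me3 and 47711 for the separate lines.

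Leaving out 1 library gave 8802 to 20708 higher and 5076 to 14892 lower, and 5201 to 14999 and 3584 to 10927 under all 8 scalings. The ranges were 7110 to 16345 for D2 minus D2-13B6 (lowest without D2 replicate 2), 4401 to 22495 for the difference between backgrounds (without D2 replicate 2 and D2-13B6 replicate 1), 827 to 1126 for H3K9me3 (lowest without B6-13D2 replicate 2) and 40681 to 46596 for the separate lines. A line left with 1 sample is assumed to vary like the others. In the decile of regions with the lowest level, 0.302% were called higher and 3.35% lower, with a median of -0.40; the part of depth in this was not tested.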
